A study of Mus musculus with 6 samples.

Results

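The kinesin, dynein and ciliary transport genes encode motor proteins that act on microtubules and the machinery that carries proteins into and along cilia. These genes also include motors of the mitotic spindle, and motors and filament proteins of beating cilia and the sperm tail. They were chosen by name alone, as the protein-coding genes of the GENCODE M1 annotation called Kif, Klc, Dnah, Dnai, Dnal, Dync, Dynl, Ift, Bbs or Tekt, which gave 108 of 22367 protein-coding genes on 21 chromosomes. The annotation spells the axonemal dynein heavy chains Dnahc. Whether Dppa2 bound them was examined in 1 anti-V5 ChIP-seq library from CGR8 cells, a mouse embryonic stem cell (ESC) line grown on gelatin without feeder cells. These cells stably expressed Dppa2 with an N-terminal V5 tag from a pPyCAG-driven vector, were cloned under puromycin, and served against 1 anti-V5 library from parental CGR8 cells that lack the tag. The number of clones in the ChIP is not given in the sources used here, and the tagged protein comes from a transgene and not from the gene's own promoter. The other samples of the series are ChIPs for H3K4me1, H3K4me3, H3K27ac and H3K9me3 in CGR8 cells and were not analysed here. With 1 library there is no replicate error and no test between conditions, the sequencing depth is unknown, and a peak list holds no expression values against which the cell type could be checked.

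Kinesins walk along microtubules, most of them towards the plus end, and carry vesicles, organelles and protein complexes; a separate set of kinesins builds and moves the mitotic spindle. Cytoplasmic dynein-1 is the main motor towards the minus end. In cilia, kinesin-2 drives intraflagellar transport (IFT) trains towards the tip, dynein-2 brings them back, and the BBSome links membrane cargo to the trains. Axonemal dyneins and tektins belong to the beating axoneme of motile cilia and of the sperm tail. Dppa2 itself is a SAP-domain protein of pluripotent and early germ cells. The members were divided by these known roles into 35 cytoplasmic genes, 16 mitotic kinesins, 29 ciliary genes, 27 axonemal and testis-type genes and Kif12, which was left unclassed. The borders were set by general knowledge with earlier results of these data known; the mitotic kinesins were kept apart from the cytoplasmic genes, and the neuronal kinesin-2 gene Kif3c from its ciliary relatives.

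A gene was called Dppa2-bound when the midpoint of a peak lay within 1000 bp of the transcription start site (TSS) of any of its transcripts. By this rule 16 of the 108 genes were bound, or 14.8% (95% exact Clopper-Pearson interval 8.71 to 22.9%), beside 14.2% of all protein-coding genes. The set as a whole therefore lay close to the background. Below that level the classes differed in their counts. Of the cytoplasmic genes 12 of 35 were bound, or 34.3% (19.1 to 52.2%). Of the mitotic kinesins 2 of 16 were bound, or 12.5% (1.55 to 38.3%), and of the axonemal and testis-type genes 2 of 27, or 7.41% (0.91 to 24.3%). None of the 29 ciliary genes was bound, which allows a share of up to 10.3% when 3 genes are taken as the limit for a count of 0; the exact interval ends at 11.9%. The exact intervals of the cytoplasmic and the ciliary genes did not overlap, but these intervals cover counting error only, genes of a family are not independent, and the difference between classes was not tested. The separation from the background also depended on the settings. At a score of at least 200 the cytoplasmic share was 17.1% (6.56 to 33.6%), beside 8.06% of all protein-coding genes, and both class intervals then included the background and overlapped. With Kif3c counted as ciliary, 1 of 30 ciliary genes was bound (0.0844 to 17.2%), an interval that holds the 14.2%. With the mitotic kinesins counted as cytoplasmic, 14 of 51 genes were bound, or 27.5% (15.9 to 41.7%). Kif12 had no peak.

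**Figure D1:**
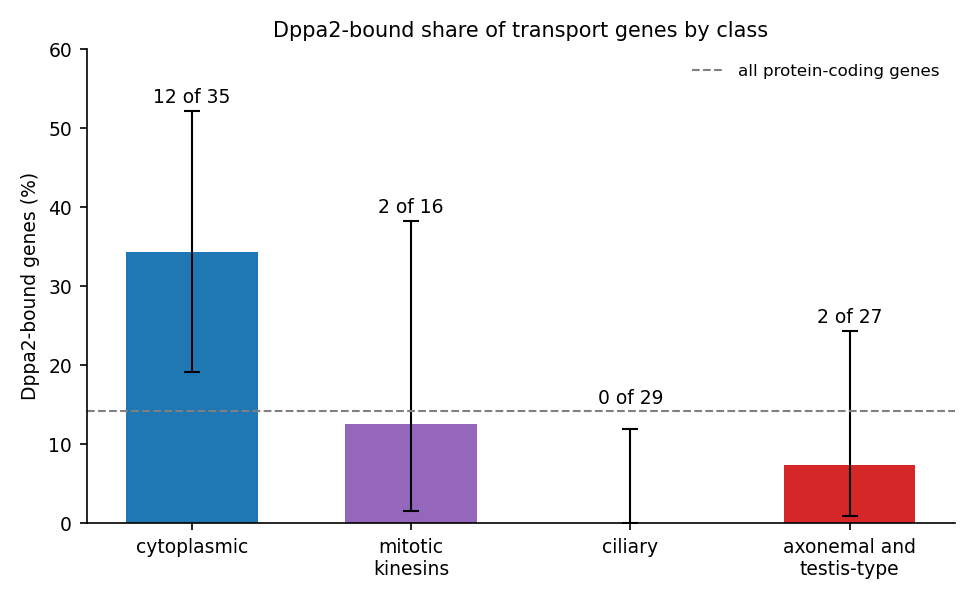
Bars give the percentage of genes with a Dppa2 peak midpoint within 1000 bp of a TSS in each class, error bars the 95% exact Clopper-Pearson interval, and the dashed line the 14.2% of all protein-coding genes. The cytoplasmic bar stands at 34.3% and the ciliary one at 0, and the intervals of these classes leave out the dashed line. This holds for peaks of any score and not for those of at least 200. With Kif3c counted as ciliary, the ciliary interval (0.0844 to 17.2%) takes in the line.

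The promoter sequences of the highest-scoring bound gene of each class show how different the bases just upstream of bound starts are. They range from a CpG-dense run to one almost without CpG. Each run is the 150 bases just upstream of the TSS in mm9, read 5′ to 3′ on the strand of the gene, with CpG dinucleotides in capitals. Kif13a lies at chr13:47025088-47025237 on the minus strand, Kif2b at chr11:91438924-91439073 on the minus strand, and Tekt4 at chr17:25608385-25608534 on the plus strand. The peaks cover all 3 runs, but their midpoints lie outside them. Over the whole peak the CpG observed-to-expected ratio was 0.815 for Kif13a, 0.542 for Kif2b and 0.454 for Tekt4. For contrast, the run of Ift140 at chr17:25152886-25153035 on the plus strand belongs to the ciliary gene with the highest CpG ratio and has no peak; it was picked after its values had been seen.
Kif13a: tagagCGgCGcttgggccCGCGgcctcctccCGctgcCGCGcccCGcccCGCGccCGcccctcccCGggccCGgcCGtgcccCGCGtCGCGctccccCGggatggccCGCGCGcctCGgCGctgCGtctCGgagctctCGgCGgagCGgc
Kif2b: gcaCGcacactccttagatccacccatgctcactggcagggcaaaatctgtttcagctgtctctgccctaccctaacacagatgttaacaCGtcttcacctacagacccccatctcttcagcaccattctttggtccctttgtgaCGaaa
Tekt4: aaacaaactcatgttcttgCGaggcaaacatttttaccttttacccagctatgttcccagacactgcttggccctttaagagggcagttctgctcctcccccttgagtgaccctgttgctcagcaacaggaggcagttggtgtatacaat
Ift140: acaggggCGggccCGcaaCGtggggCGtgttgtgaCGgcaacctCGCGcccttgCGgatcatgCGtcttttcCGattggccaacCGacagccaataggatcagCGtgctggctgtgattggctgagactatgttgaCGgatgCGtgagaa
The Kif13a run holds 29 CpGs and 85.3% GC, the Kif2b run 3 CpGs and the Tekt4 run 1. The Ift140 run holds 14 CpGs.

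Cytoplasmic kinesins made up 10 of the 12 bound cytoplasmic genes, counting their light chains. They are also most of this class, being all of its 35 genes except the 15 dynein genes. Over all protein-coding genes 14.2% were bound, and the difference between kinesins and dyneins was not tested. Each peak is quoted with the MACS score in the deposited list, 10 times the negative log10 of the enrichment p-value over the untagged control. Ranks are among all 3336 peaks, and positions are counted from the bound TSS, with negative values upstream. Kinesin-3 motors, which carry synaptic vesicle precursors, mitochondria and endosomes, were bound at 3 of 6 genes. Kif13a (ENSMUSG00000021375) had the strongest cytoplasmic peak, with a score of 379 and rank 697, spanning 2126 bp with its midpoint at -229 bp. Kif1b (ENSMUSG00000063077) followed with a score of 357 and rank 786. Kif1c (ENSMUSG00000020821) had a weaker peak with a score of 159, the widest of all members at 2396 bp. Kif1a, Kif13b and Kif16b had none.

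Kif1b shows why all annotated starts were used. The gene has 12 transcripts and 11 TSSs on the minus strand of chromosome 4. Even the TSS with the most transcripts therefore serves a minority of them. The peak midpoint lies at -109048 bp from that TSS. The peak, from 148680781 to 148682522, sits at the far 5′ start of the gene, with its midpoint at -36 bp from the nearest TSS and in the 5′ UTR of a longer transcript. At the bound start the CpG observed-to-expected ratio over 1000 bp was 0.911, and at the start with the most transcripts it was 0.345. Of the other bound members, 10 had their peak nearest to the start with the most transcripts. The remaining 5 had it nearest to another start, with the former at most 740 bp from the midpoint.

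Kinesin-1 is made of heavy chains, which are the motor, and light chains, which bind the cargo. Both Klc1 (ENSMUSG00000021288; score 265, rank 1368) and Klc2 (ENSMUSG00000024862; score 282, rank 1249) were bound, and Klc3 and Klc4 were not. None of the heavy chain genes Kif5a, Kif5b and Kif5c had a peak; the nearest midpoint to any of them was 35.6 kb away. The peak of Klc1 was centred at -60 bp, and that of Klc2 at -322 bp from an internal start, in an intron of the longer transcripts.

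Kif26a and Kif26b, a pair of atypical kinesins that act in development, were both bound, with scores of 215 and 135. The peak of Kif26b (ENSMUSG00000026494) ended before the TSS, the only one of the 16 that did not cover it, and its midpoint at -985 bp was just inside the limit of 1000 bp. Kif21a (ENSMUSG00000022629), which restrains microtubule growth and is mutated in an inherited disorder of eye movement, had a score of 217 with the midpoint 289 bp downstream in coding sequence, and its relative Kif21b had no peak. Kif3c, the neuronal kinesin-2, had a score of 147 and the most downstream midpoint, 582 bp into the gene in the 5′ UTR. Its ciliary relatives Kif3a, Kif3b and Kif17 had no peak. Kifc3, a minus-end kinesin, had a score of 135, and Kifc2 none.

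**Figure D2:**
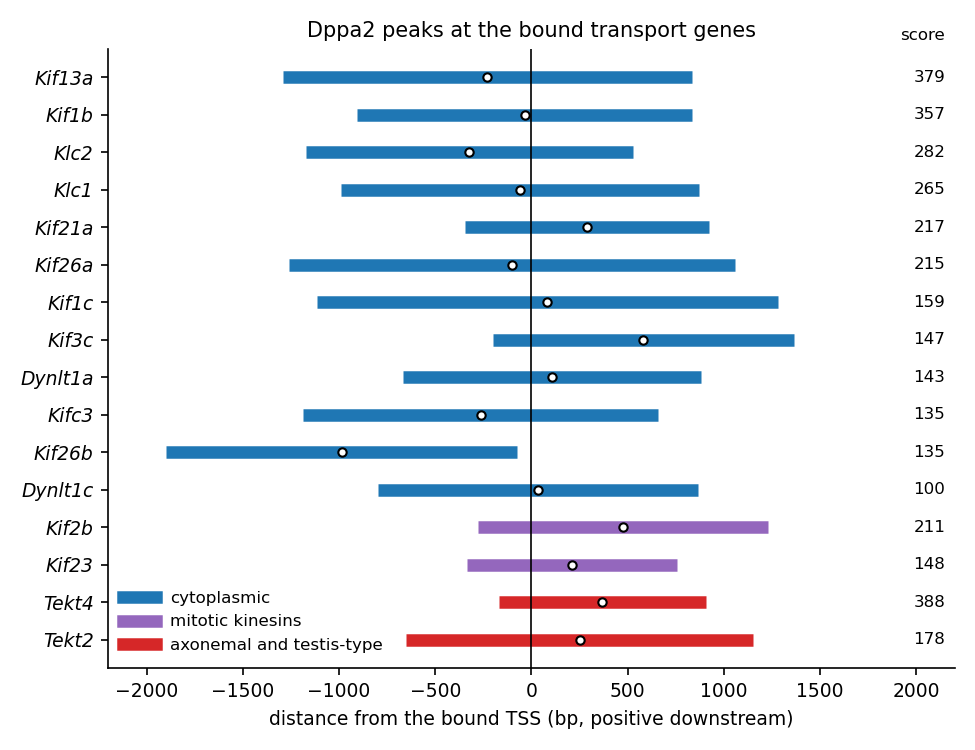
Bars span the Dppa2 peak of each of the 16 bound genes relative to the bound TSS at 0 (bp, positive downstream), circles mark the midpoints, and the score stands at the right. Every peak covers the TSS except that of Kif26b, which lies upstream, and the midpoints run from -985 to 582 bp.

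Of the 15 cytoplasmic dynein genes 2 were bound, or 13.3% (1.66 to 40.5%), close to the 14.2% of all protein-coding genes. The dynein-1 heavy chain Dync1h1, the intermediate chains Dync1i1 and Dync1i2 and the light intermediate chains Dync1li1 and Dync1li2 had none, nor had the light chains Dynll1, Dynll2, Dynlrb1, Dynlrb2 and Dynlt3. The bound genes were Dynlt1a and Dynlt1c, copies of the Tctex-type light chain. Both peaks lay largely in sequence repeated elsewhere in the genome, as given below. Without such peaks no dynein gene of any class was bound, beside 13.7% of all protein-coding genes. With them counted, 2 of all 37 dynein genes, cytoplasmic, ciliary and axonemal, were bound, or 5.41% (0.661 to 18.2%). Over the Kif genes it was 10 of 42, or 23.8% (12.1 to 39.5%). Both intervals include 14.2% and they overlap each other, and the difference was not tested.

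Dynlt1 lies in an array of 5 annotated copies on chromosome 17, of which Dynlt1a and Dynlt1c had a peak and Dynlt1b, Dynlt1e and Dynlt1f had none. The copies are close to identical around their starts. Dynlt1e and Dynlt1f shared 999 aligned bp at 100% identity, and Dynlt1a and Dynlt1c 650 bp at 96.3%. The stretch of 85 bases that Dynlt1a and Dynlt1c share upstream of their annotated starts makes this plain. It lies at chr17:6317540-6317624 in Dynlt1a and chr17:6655065-6655149 in Dynlt1c, both on the minus strand, and is shown 5′ to 3′ with the base that differs from Dynlt1a in capitals.
Dynlt1a: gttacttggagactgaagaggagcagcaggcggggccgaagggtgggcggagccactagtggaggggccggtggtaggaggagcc
Dynlt1c: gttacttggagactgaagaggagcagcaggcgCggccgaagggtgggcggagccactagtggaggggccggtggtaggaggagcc
The only difference is G33C, counted from the 5′ end of the run with the base of Dynlt1a first. Dynlt1b, Dynlt1e and Dynlt1f hold the same 85 bases as Dynlt1a with 0 differences, and have no peak.

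The alignment used a seed of 36 bases, and a seed that occurs more than once cannot be placed by itself. In the Dynlt1c peak 100% of the 36-mers occurred more than once on the assembled chromosomes of mm9, and in the Dynlt1a peak 58.4%. In the 1000 bp around the starts of the copies without a peak the share was 60.2% for Dynlt1b and 100% for Dynlt1e and Dynlt1f. For a read that fits several places the authors kept its best alignment, and the list does not show how many reads of the Dynlt1a peak lay in its unique sequence. No reads were examined, and the part of the other copies in these peaks was not tested. Both peaks were also weak: Dynlt1a had a score of 143 and Dynlt1c one of 100, rank 3334 of 3336. Of the other 14 member peaks, 13 held no repeated 36-mer and Kif2b held 7.07%. Over all peaks in the list, 7.28% had more than 50% of their 36-mers repeated. Without such peaks 10 of the 35 cytoplasmic genes were bound, or 28.6% (14.6 to 46.3%), beside 13.7% of all protein-coding genes. The lower end of that interval lay only just above the background. Of the 108 members 14 were bound (7.27 to 20.8%), a share slightly below the same 13.7%.

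Mitotic kinesins had peaks at 2 of 16 genes. Kif2b (ENSMUSG00000046755), a microtubule depolymerase of the kinesin-13 type, had a score of 211 with the midpoint 475 bp downstream of its only TSS, in the coding part of its only annotated exon on chromosome 11. Its relatives Kif2a and Kif2c had no peak. Kif23 (ENSMUSG00000032254), the centralspindlin motor of cytokinesis, had a score of 148 and a midpoint 211 bp downstream, in an intron. Kif4, Kif11, Kif14, Kif15, Kif18a, Kif18b, Kif20a, Kif20b, Kif22, Kifc1 and Kifc5b, which serve spindle assembly, chromosome movement and cell division, had no peak. Kif4-ps, which the annotation lists as protein-coding although its name marks a pseudogene, had none either. The CpG ratio of this class reached the highest value of all members, 1.06 at Kif2a, without a peak there.

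No ciliary gene was bound. This held for all 12 Ift genes, subunits of the transport trains (Ift20, Ift27, Ift46, Ift52, Ift57, Ift74, Ift80, Ift81, Ift88, Ift122, Ift140 and Ift172), and for all 8 Bbs genes (Bbs1, Bbs2, Bbs4, Bbs5, Bbs7, Bbs9, Bbs10 and Bbs12). It also held for the train motors Kif3a, Kif3b, Kif17, Dync2h1 and Dync2li1, for Kif7 and its relative Kif27, of which Kif7 acts in Hedgehog signalling, and for Kif19a and Kif24, which set cilium length and formation. The nearest midpoint to a ciliary gene was 2025 bp upstream of Ift140, in a peak at Cramp1l with a score of 232. The peaks nearest to Kif7, 3605 bp away with a score of 233, and to Ift172, 4476 bp away with a score of 212, lay at 9330171B17Rik and Fndc4. Among the cytoplasmic genes without a peak only Dync1h1 came within 5 kb, with a midpoint 2862 bp downstream of an internal annotated start, 61.7 kb into the gene, in a peak at Gm17111 with a score of 333. That peak is at the 3′ end of Dync1h1 and not at its promoter. No other member had a midpoint between 1 and 5 kb from a TSS. Since the list holds only peaks that the authors selected at TSSs, such distances cannot show that no Dppa2 site lay nearer.

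Among the axonemal and testis-type genes of the naming rule, the bound ones were tektins, which form filaments along the doublet microtubules. Tekt4 (ENSMUSG00000024175) had the highest score of all members, 388 with rank 657, and its peak on chromosome 17, from 25608364 to 25609443, was the narrowest at 1080 bp. Tekt2 (ENSMUSG00000028845) had a score of 178. Both midpoints fell in coding exons, 368 and 251 bp downstream of the TSS. Tekt1, Tekt3 and Tekt5 had no peak. None of the 15 axonemal dynein heavy chains, Dnahc1, Dnahc2, Dnahc3, Dnahc5, Dnahc6, Dnahc7a, Dnahc7b, Dnahc7c, Dnahc8, Dnahc9, Dnahc10, Dnahc11, Dnahc12, Dnahc14 and Dnahc17, was bound, and the exact interval of this share ends at 21.8%. The intermediate and light chains Dnaic1, Dnaic2, Dnalc1, Dnalc4 and Dnali1 and the axonemal kinesins Kif6 and Kif9 had no peak either.

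CpG content of the promoter was then compared, since over all protein-coding genes it differed between bound genes and the rest, with medians of 0.776 against 0.467 for the CpG observed-to-expected ratio. The ratio is the number of CpG dinucleotides divided by the number that the C and G content predicts. It was taken over 1000 bp around the TSS with the most transcripts. Among the members the medians were much closer, 0.699 in the 16 bound genes (range 0.345 to 0.904) and 0.665 in the 92 others (0.139 to 1.06), and with 500 bp in place of 1000 bp they were 0.736 and 0.730. The median GC content was 60.9% and 55.0%. The cytoplasmic and ciliary classes, which had 12 and 0 bound genes, had about the same median ratio, 0.715 and 0.709. Their GC content differed more, with medians of 60.1% and 56.4%. Inside the cytoplasmic class the median ratio was 0.719 in the bound genes and 0.709 in the others, and the median GC content 65.4% and 59.0%. Families without any peak covered much of the range: the dynein-1 genes ran from 0.564 to 0.95, the Ift genes from 0.610 at Ift46 to 1.04 at Ift140, and the Bbs genes from 0.578 to 0.778. The axonemal and testis-type class was CpG-poor, with a median ratio of 0.411. Whether CpG or GC content bears on the bound shares of the classes was not tested.

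Within the CpG-rich promoters, with a ratio of 0.6 or more, 23.9% of all protein-coding genes were bound. There 9 of 26 cytoplasmic genes were bound, or 34.6% (17.2 to 55.7%), 1 of 13 mitotic kinesins, or 7.69%, and 0 of 22 ciliary genes. The exact interval of the ciliary share ended at 15.4%, below the 23.9%, and the difference was not tested. Between 0.35 and 0.6 the background was 12.4%, and 5 of 25 members were bound, namely Kif3c, Dynlt1a, Kif2b, Tekt2 and Tekt4. Under 0.35 it was 3.11%, and the 1 bound member of 16 was Kif1b, whose bound start is CpG-rich as given above. Both tektins and Kif2b stood out among the bound members for low ratios, 0.407 for Tekt4, 0.469 for Tekt2 and 0.404 for Kif2b.

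**Figure D3:**
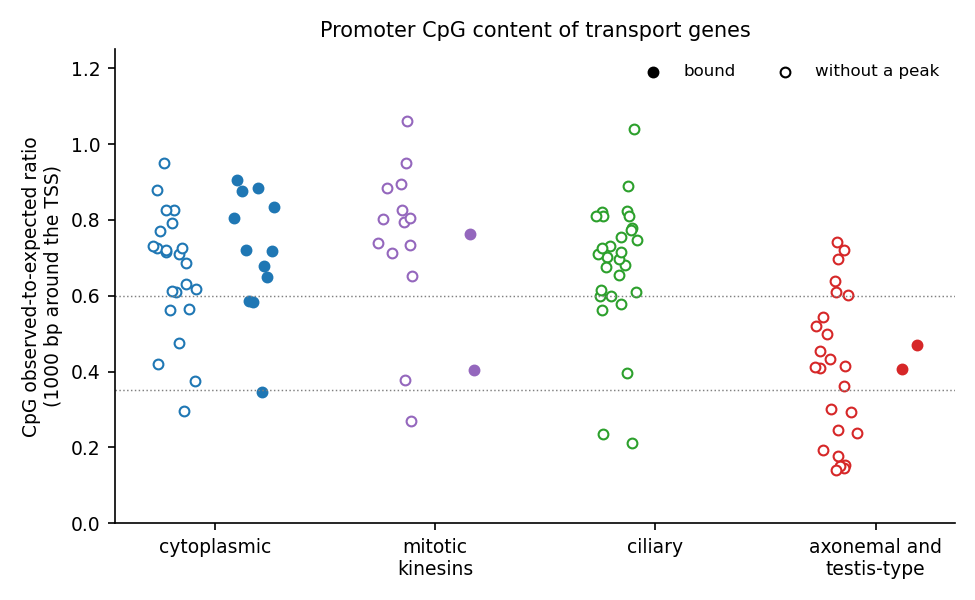
Each point is 1 gene, with the CpG observed-to-expected ratio over 1000 bp around the TSS with the most transcripts on the y axis. Filled points are Dppa2-bound genes and open points genes without a peak, and dotted lines mark 0.35 and 0.6. Cytoplasmic and ciliary genes cover similar heights, with medians of 0.715 and 0.709. Of these classes the cytoplasmic one has filled points and the ciliary one has none. Whether CpG content bears on that was not tested.

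Genes also differ in their number of annotated starts, and whether that number bears on the bound shares was not tested. Of the members with 1 TSS 5 of 35 were bound, or 14.3%, and of those with several 11 of 73, or 15.1%; over all protein-coding genes the shares were 11.7% and 16.1%. The ciliary genes had a median of 4 TSSs per gene and the cytoplasmic genes 3. With only the TSS with the most transcripts, 11 cytoplasmic genes (31.4%) and 0 ciliary genes were bound, beside 13.5% of all protein-coding genes. The gene lost was Kif1b.

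The member peaks were mostly of middling or low score. Their median was 194, against 228 over all peaks, and 5 of 16 lay above the latter. The highest 3, at Tekt4, Kif13a and Kif1b, ranked between 657 and 786 of 3336. At a score of at least 200, 8 members were left, or 7.41%, beside 8.06% of all protein-coding genes. These were Kif13a, Kif1b, Klc1, Klc2, Kif21a, Kif26a, Kif2b and Tekt4. The member peaks had a median width of 1722 bp, against 1433 bp over all peaks. Their midpoints lay downstream of the TSS in 9 genes and upstream in 7, with a median of 57.5 bp downstream, and by annotation of the member itself 4 lay in coding exons, 4 in introns, 3 in 5′ UTRs and 5 upstream of the gene. The bound members were spread over 10 chromosomes. On chromosome 17 the peaks were Dynlt1a at chr17:6316595-6318139, Dynlt1c at chr17:6654200-6655864 and Tekt4. On chromosome 12 they were Kif3c at chr12:3364932-3366496, Klc1 at chr12:112996069-112997932 and Kif26a at chr12:113383188-113385506. Chromosome 11 held Kif1c at chr11:70513038-70515433 and Kif2b at chr11:91437696-91439201, and chromosome 4 held Tekt2 at chr4:126001290-126003095 beside Kif1b. The other peaks were Kif26b at chr1:180457359-180459183, Kifc3 at chr8:97665781-97667626, Kif23 at chr9:61793784-61794879, Kif13a at chr13:47024254-47026379, Kif21a at chr15:90879455-90880725 and Klc2 at chr19:5117057-5118759, all in mm9. Each peak belonged to 1 member, and the peak of Kif1c was the only one that also had the TSS of another gene within 1000 bp, that of Inca1 on the opposite strand.

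**Figure D4:**
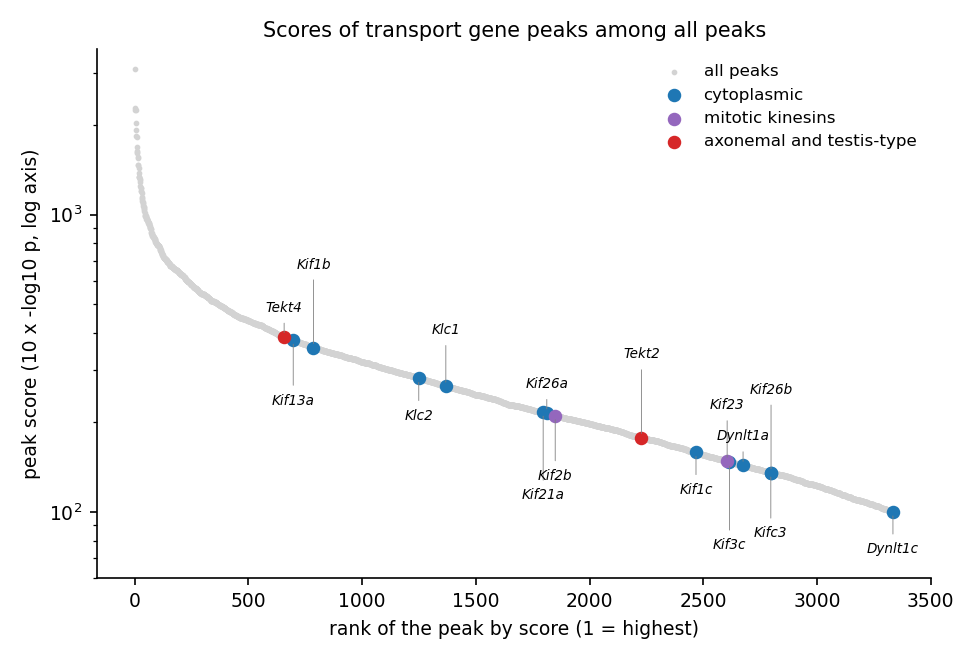
Grey points are all 3336 peaks by rank and score (as deposited, log axis) and coloured points the 16 member peaks with their gene names. The members begin at rank 657 (Tekt4) and reach rank 3334 (Dynlt1c), and 8 of them have a score of at least 200.

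Genes of the same pathways with other names were looked at as well, from lists of 88 names of which 85 were found in the annotation; Dnaaf1, Dnaaf2 and Dnaaf3 were not matched. Of these 8 were bound, or 9.41% (4.15 to 17.7%), again beside 14.2% of all protein-coding genes. Among 23 genes of dynactin and motor adaptors 3 were bound. These were Hook3, which joins dynein to its cargo (score 279), Trak1, which links kinesin-1 to mitochondria (score 227), and Pafah1b1, the dynein regulator also called Lis1 (score 164). The peak of Hook3 is shared with Rnf170 on the opposite strand. No Dctn gene of dynactin had a peak.

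Among 30 genes of ciliary transport and the transition zone 1 was bound, or 3.33% (0.0844 to 17.2%). It was Traf3ip1, an IFT subunit outside the naming rule, with a score of 114 and rank 3118. The count of 0 in the ciliary class therefore applies to genes named Ift, Bbs, Kif and Dync and not to every IFT subunit. Among 32 genes of axoneme assembly and motile cilia 4 were bound. Rsph6a, a radial spoke protein, had the highest score of all these genes, 439 with rank 501, and its midpoint was at -809 bp. Ccdc40, which sets the spacing of axonemal arms, had a score of 133 in a peak shared with Tbc1d16. The radial spoke genes Rsph3a and Rsph3b, with scores of 154 and 170, are again near copies on chromosome 17. Their peaks shared 651 aligned bp at 97.8% identity, and 57.5% and 57.8% of their 36-mers were repeated. How many reads lay in the unique part of each peak cannot be seen from the list. Without peaks in repeated sequence 6 of the 85 genes were bound, or 7.06%, beside 13.7% of all protein-coding genes.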

How the data were processed

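Peaks of the V5-Dppa2 library were assigned to GENCODE M1 genes on the mm9 build, which is also that of the list. The score in the deposited list was computed by the authors as 10 times the negative log10 of the p-value from MACS. For it, per the labels and the study's methods, reads of low complexity were removed, the rest aligned with Bowtie 0.12.7 (seed of 36 bases, up to 2 mismatches, best alignment kept), duplicates removed, and peaks called with MACS 1.4.2 against the parental control at a shift of 75 bp and filtered to p-values up to 1e-10 and 100 reads or more. The list is the authors' selection of peaks at TSSs, so sites elsewhere were not seen, and a gene without a peak may hold weaker signal.

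Members, classes, gene lists and settings were chosen with earlier results of these data known. Named were all bound members, the others by family, and bound related genes. Shares carry 95% Clopper-Pearson (exact) intervals and no test. Where starts tied for the most transcripts, the most upstream was used. Repeated 36-mers were counted on both strands of the assembled chromosomes, and similarity was taken from megablast hits of at least 300 bp and 85% identity. The steps were tested on data with known answers. Alternatives were a stricter score, other windows, other reference points of the peak, 1 TSS per gene and a smaller composition window. BLAST 2.17.0 and Python 3.11.15 were used, with pysam 0.24.0, numba 0.67.0, pandas 2.3.3, scipy 1.17.1, numpy 2.4.6 and matplotlib 3.10.9.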

Additional observations from a re-analysis of the deposited data

How the results depend on the processing

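With peaks of score 200 or more, bound members went from 16 to 8, since fewer peaks enter. The cytoplasmic count went from 12 to 6, those of the mitotic kinesins and of the axonemal and testis-type genes from 2 to 1 each, and that of the related genes from 8 to 3. The share of all protein-coding genes fell to 8.06% at the same score. A midpoint within 5 kb brought in Ift140, Ift172 and Kif7, for 3 of 29 ciliary genes beside 15.5% of all protein-coding genes, by peaks at other genes; the other setting with a bound ciliary gene counted Kif3c as ciliary, for 1 of 30. At a score of 200 or more the interval of the cytoplasmic share, 17.1% (6.56 to 33.6%), included the background. With 500 bp in place of 1000 bp the median CpG ratio was 0.736 in bound members and 0.730 in the others. Taken at the bound TSS it was 0.719 in bound members, a setting added after the data had been seen, as were leaving out peaks in repeated sequence and the other class borders. All other counts stayed within 1.5 times their value. No paired analysis was possible because the peaks analysed come from 1 library, so no replicate could be left out either. With the depth unknown, how many weaker peaks were missed is unknown too.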
